A study of Caenorhabditis elegans with 39 samples.

Results

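The egg of *C. elegans* is made ready for fertilization while the oocyte still sits in the gonad, and 10 genes of that preparation were followed here by their mRNA and by the small RNAs made against them. They are *egg-1* (B0244.8), *egg-2* (R01H2.3), *egg-3* (F44F4.2), *egg-4* (T21E3.1), *egg-5* (R12E2.10), *cbd-1* (H02I12.1), *chs-1* (T25G3.2), *cpg-1* (C07G2.1), *cpg-2* (B0280.5) and *rme-2* (T11F8.3), chosen by name for their known part in the eggshell, in its assembly at the oocyte surface or in yolk uptake. The choice was made with earlier results of these data known. All 10 genes were found among the 22844 genes of the mRNA tables. Of the 21815 small RNA features, 9 were the 22G-RNA loci of these genes, and *cpg-1* had no locus of its own in the annotation. In the RefSeq assembly WBcel235, *egg-4*, *egg-5* and *chs-1* lie on chromosome I, *egg-3* on II, *egg-1*, *egg-2*, *cpg-1* and *cpg-2* on III, and *cbd-1* and *rme-2* on IV.

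Distal gonad arms of 2 mutant strains, *prg-1*, carrying allele n4357, and *mut-16*, carrying allele pk710, were compared with those of the wild type strain N2, and wild type distal gonads were compared with wild type whole animals. All animals were gravid adults, collected at 68 to 70 h and 20 °C after the arrested first larval stage. Each of the 8 groups held 3 libraries, 24 libraries in all of 39 in the series. Both mutations lie on chromosome I, as do *egg-4*, *egg-5* and *chs-1*. The mutant strains had gone through only a single cross to N2 shortly before. Each gonad sample pooled the arms of many animals, from which the proximal part had been removed, while whole animals still carried their proximal gonads and embryos. The study describes the replicates as biological, and whether they came from separate cultures is not stated in the sources used here. The p-values measure the spread between these replicates.

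A growing oocyte takes up yolk, a lipoprotein made in the intestine, through the receptor RME-2. It also places on its surface the proteins that will meet the sperm and build the eggshell. The eggshell, completed after fertilization, has an outer vitelline layer, a chitin layer and an inner layer of chondroitin proteoglycans. EGG-1 and EGG-2 are surface proteins of the LDL receptor family that are needed for sperm to enter. EGG-3, EGG-4 and EGG-5 resemble protein tyrosine phosphatases but lack the activity, and they hold the kinase MBK-2 at the oocyte cortex until the embryo begins to develop. CHS-1 is the chitin synthase, CBD-1 is a chitin-binding protein of the outer layer, and CPG-1 and CPG-2 are chondroitin proteoglycans. Transcripts of the germline are also templates for 22G-RNAs, antisense small RNAs copied by RNA-dependent RNA polymerases. Those bound by the Argonaute CSR-1 are known to license germline genes and those bound by WAGO Argonautes to silence their targets. All 9 loci here were annotated as CSR-1 class. PRG-1 is the Argonaute of piRNAs, and MUT-16 organizes the bodies in which WAGO-class 22G-RNAs are amplified.

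Values are reads scaled by the authors so that libraries of a table could be compared, and they are called normalized reads. They are not corrected for gene length, so levels were compared between libraries and not between genes. Normalized totals were 14202890 to 16823727 reads per mRNA library, and how many sequenced reads stood behind them is unknown. In the small RNA tables the number of reads behind the values could be worked back for all libraries but *prg-1* replicate 1, and came to 4807115 and 2872222 in the other *prg-1* libraries, 2317176 to 3012349 in *mut-16*, 4215264 to 7051210 in wild type gonads and 505952 to 1642602 in whole animals. The mutated genes followed their labels, with *prg-1* mRNA at 5414 ± 802 in *prg-1* gonads against 10550 ± 600 in wild type gonads (mean ± SD, n = 3), and *mut-16* mRNA at 949.9 ± 25.7 in *mut-16* gonads against 2069 ± 17.9 in wild type gonads. The 9 intestine markers together had 8.58 to 29.3 normalized reads in wild type gonads against 26628 to 32811 in whole animals, with 1 of them at 0 in every wild type gonad library, and the 9 muscle markers had 506.6 to 699.1 in wild type gonads, against 27011 to 47846 in whole animals.

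The mRNA of every one of the 10 genes was higher in wild type distal gonads than in whole animals, by 1.42-fold to 2.06-fold. A gene was called when its adjusted p was below 0.05 and its change at least 1.3-fold (limma, Benjamini-Hochberg over all genes tested). All 10 were called higher, where 26.1% of the 12761 genes tested were. In the same fit 52.6% of genes were called lower, and the median log2 change was 0.64 over the 10 genes and -0.79 over all genes tested, though that over all genes was 0.20 to 0.24 without any 1 whole animal library, when fewer genes reached the minimum. Among 10 germline marker genes, 8 were also called higher and none lower, with a median log2 change of 0.68. For all 10 egg genes every gonad library stood above every whole animal library, as it did for 34.4% of all genes. The 10 genes together took 1.17% to 1.19% of all normalized mRNA reads in gonads, against 0.720% to 0.940% in whole animals. The proximal arms, which hold the oocytes, were not part of the gonad samples but were part of whole animals. In bulk samples, a larger share of germ cells and more of these mRNAs per germ cell cannot be told apart.

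The largest difference was that of *egg-5*. It had 11007, 10528 and 10140 normalized mRNA reads in gonads, against 5504, 4555 and 5396 in whole animals (log2 change 1.04 ± 0.08 SE, adjusted p = 3.21e-06, limma). Its close relative *egg-4* had 7957, 7619 and 7722 in gonads, against 4844, 3820 and 4356 in whole animals (0.85 ± 0.08, adjusted p = 1.74e-05, limma). The proteins of this pair are nearly identical and act redundantly, and reads that match both genes may have been shared between them by the counting. The sum of the pair was higher in gonads by 0.95 on the log2 scale (adjusted p = 5.84e-06, limma). *egg-1*, needed for sperm entry, had 9245, 8382 and 8261 in gonads, against 5442, 4719 and 5056 in whole animals (0.77 ± 0.07, adjusted p = 1.18e-05, limma). *egg-2*, its partner, had 6618, 6602 and 6733 in gonads, against 4561, 3951 and 4229 in whole animals. In both genes the lowest gonad library stood above the highest whole animal library.

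The yolk receptor *rme-2* followed with 33024, 31780 and 33673 normalized mRNA reads in gonads, against 22898, 17340 and 20162 in whole animals (log2 change 0.71 ± 0.09 SE, adjusted p = 0.000109, limma). The remaining genes changed by 0.50 to 0.63 on the log2 scale. *cbd-1* changed least, with 48687, 46073 and 51148 in gonads, against 38480, 29343 and 35614 in whole animals (0.50 ± 0.10, adjusted p = 0.00121, limma). *chs-1*, the chitin synthase, had 17821, 17299 and 17661 in gonads, against 12410, 10364 and 11418 in whole animals. Whole animal replicate 2 was the lowest library for all 10 genes. For 9 of the genes the SD was smaller in gonads than in whole animals, and for *egg-1* it was larger (537 normalized reads in gonads against 362 in whole animals).

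**Figure D1:**
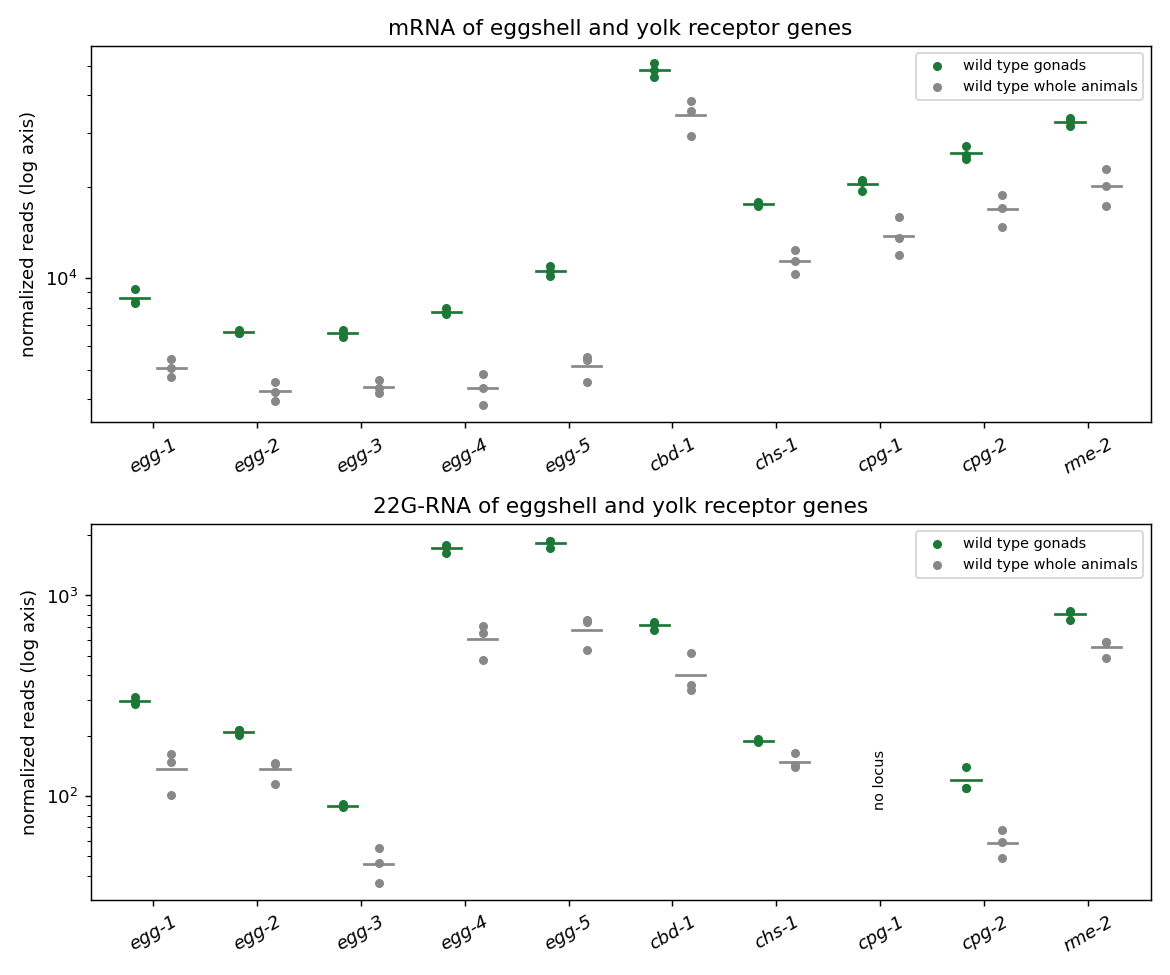
Normalized reads of each gene in wild type distal gonads and wild type whole animals (log axis; each point 1 library, bars the mean of 3), for mRNA above and 22G-RNA below. The gonad libraries lie above the whole animal libraries for all 10 mRNAs and all 9 22G-RNA loci.

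The 22G-RNAs against these genes were also more abundant in distal gonads. Of 9 loci, 8 were called higher and the other, that of *chs-1*, did not reach 1.3-fold (log2 change 0.35 ± 0.11 SE, adjusted p = 0.0291, limma), though it did without whole animal replicate 2 (0.42) and under each other scaling tried. With TMM, a scaling by trimmed means of log ratios, over all features *chs-1* was at 0.47, with library totals made equal at 0.64 and with TMM over miRNAs only at 5.08, and all 9 loci were called higher under each. The median of all features moved by 0.12, 0.30 and 4.53 under those scalings, and under the last 7842 of 7998 features were called higher, so the sizes given here are those of the authors' scaling. Among all 7191 features tested 31.9% were called higher, and among the CSR-1-class loci 60.9%. The median log2 change was 0.96 over the 9 loci, 0.71 over CSR-1-class loci and 0.18 over all features. The loci of 10 germline marker genes were all called higher too, with a median of 1.09. For all 9 the gonad libraries stood above the whole animal libraries, as for 39.4% of all features. The loci took 0.319% to 0.341% of normalized small RNA reads in gonads, against 0.106% to 0.136% in whole animals. As a share of CSR-1-class reads alone, which does not depend on the scaling, they took 0.730% to 0.769% in gonads, against 0.589% to 0.663% in whole animals. The rise in this share came from *egg-4* and *egg-5*. Over the other loci together the share was lower in gonads than in whole animals, without overlap.

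The loci of *egg-4* and *egg-5* changed most. *egg-4* had 1795, 1636 and 1743 normalized 22G-RNA reads in gonads, against 475.7, 702.8 and 651.2 in whole animals (log2 change 1.52 ± 0.15 SE, adjusted p = 0.000286, limma). *egg-5* had 1866, 1731 and 1873 in gonads, against 533.1, 750.8 and 735.2 in whole animals (1.45 ± 0.14, adjusted p = 0.00027, limma). The pair made up 59.1% to 59.8% of the 22G-RNA reads of the 9 loci in gonads, against 43.5% to 49.1% in whole animals. Small RNA reads that match both genes may likewise have been shared between the 2 loci. The locus of *egg-1* was higher by 1.15, that of *cpg-2* by 1.02, that of *egg-3* by 0.96 and that of *cbd-1* by 0.84 on the log2 scale. *rme-2* had 822.6, 754.1 and 839.2 in gonads, against 488.0, 587.1 and 584.0 in whole animals (0.55 ± 0.11, adjusted p = 0.00418, limma). Few reads stood behind the whole animal values: 9, 39 and 11 reads for *egg-3* and 12, 48 and 14 for *cpg-2*, against 206, 355 and 252 for *egg-3* and 258, 438 and 382 for *cpg-2* in gonads.

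Most neighbouring genes of eggshell synthesis and of the oocyte-to-embryo transition were also higher in gonads, and yolk protein genes were lower. Among all genes tested, 26.1% were called higher in gonads and 52.6% lower. Of 13 enzymes of chitin and chondroitin synthesis, 8 mRNAs were called higher in gonads, none lower and 5 were not called, with a median log2 change of 0.43. The largest changes were those of *gfat-2* (13837 ± 439 in gonads against 7678 ± 641 in whole animals) and *gfat-1* (3794 ± 301 against 2264 ± 263 in whole animals), whose enzymes open the pathway to the sugar building blocks of chitin. Of 12 other genes of the eggshell and its permeability barrier, 6 were higher and 4 lower. The largest changes there were decreases, of the acetyl-CoA carboxylase gene *pod-2* (2324 ± 145 in gonads against 8449 ± 512 in whole animals) and of *perm-2* (755.1 ± 79.3 in gonads against 1375 ± 221 in whole animals), while the proteoglycan gene *cpg-3* was at 9379 ± 649 in gonads against 5717 ± 209 in whole animals. Of 16 genes of the oocyte-to-embryo transition, 14 were higher, led by *puf-3*, an RNA-binding protein gene (log2 change 1.02), and 1, the caveolin gene *cav-1*, was lower (-2.34). Of 14 genes of endocytosis, 2 were higher and 5 lower, led by *rme-4* (-1.36) and *aps-2* (-1.02). The 6 yolk protein genes, ligands of RME-2 made in the intestine, together had 121.4 to 584.7 normalized mRNA reads in gonads against 199545 to 202849 in whole animals, and all 6 were called lower, *vit-3* (-9.85) and *vit-5* (-9.64) the most.

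In *prg-1* gonads 8 of the 10 mRNAs stayed within 1.3-fold of wild type, and *egg-5* and *rme-2* did not. *egg-5* was called higher and *rme-2* lower, so 2 of 10 genes were called where 30.3% of the 9943 genes tested were called in either direction, 20.7% higher and 9.53% lower. Without the fold threshold, 2 genes were higher and 5 lower at adjusted p below 0.05, where 24.3% of all genes were higher and 18.3% lower. The median log2 change was -0.15 over the 10 genes and 0.01 over all genes. The libraries of the 2 genotypes did not overlap for 2 genes that were higher and 6 that were lower in *prg-1*, as for 29.3% and 24.7% of all genes. The 10 genes summed to 173890 to 180002 normalized mRNA reads in *prg-1* gonads, against 185492 to 188822 in wild type gonads.

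*egg-5* had 20433, 20033 and 17687 normalized mRNA reads in *prg-1* gonads, against 10973, 10952 and 10215 in wild type gonads. Every *prg-1* library stood above every wild type library, and the log2 change was 0.85 ± 0.06 (SE, adjusted p = 4.23e-06, limma). *egg-4* had 9026, 9878 and 9953 in *prg-1* gonads, against 7932, 7925 and 7779 in wild type gonads (0.29 ± 0.05, adjusted p = 0.00113, limma), below the fold threshold but again without overlap. The sum of the pair was 0.64 higher on the log2 scale in *prg-1* gonads (adjusted p = 6.55e-06, limma), a value that does not depend on how shared reads were divided. These are the pseudophosphatases that anchor MBK-2. The mRNA of the kinase itself, *mbk-2*, was at 1921 ± 138 in *prg-1* gonads, against 2039 ± 75.1 in wild type gonads (-0.09, adjusted p = 0.228, limma), and that of their partner *egg-3* was at 6043 ± 349 in *prg-1* gonads against 6690 ± 52.2 in wild type gonads (-0.15, adjusted p = 0.0227, limma).

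*rme-2* had 24688, 25113 and 24201 normalized mRNA reads in *prg-1* gonads, against 32921, 33060 and 33921 in wild type gonads (log2 change -0.43 ± 0.04 SE, adjusted p = 5.25e-05, limma). The highest *prg-1* library was below the lowest wild type library by more than the spread of either group. *egg-2* had 5705, 5444 and 5019 in *prg-1* gonads, against 6597, 6867 and 6782 in wild type gonads (-0.33 ± 0.05, adjusted p = 0.000773, limma), which passed the fold threshold under TMM (-0.39). *egg-1* was lower by 0.26 on the log2 scale (adjusted p = 0.00271, limma) and *chs-1* by 0.19 (adjusted p = 0.0136, limma). *cbd-1*, *cpg-1* and *cpg-2* did not pass the test. *cpg-2* had 25160, 25905 and 27403 in *prg-1* gonads, against 27193, 25750 and 25619 in wild type gonads, with a 95% interval of the log2 change of -0.11 to 0.11.

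In *mut-16* gonads no mRNA of the 10 was called, where 20.1% of all genes were. At unadjusted p below 0.05, 4 of 10 genes differed in limma, as did 43.6% of all genes, and without the fold threshold 3 were lower, where 12.6% of all genes were lower. Libraries did not overlap for 2 genes that stood higher and 5 that stood lower in *mut-16*, as for 28.4% and 24.8% of all genes. *rme-2* had 27064, 27671 and 27603 normalized mRNA reads in *mut-16* gonads, against 32921, 33060 and 33921 in wild type gonads (log2 change -0.28 ± 0.04 SE, adjusted p = 0.0014, limma). *egg-5* had 9293, 9173 and 8872 in *mut-16* gonads, against 10973, 10952 and 10215 in wild type gonads (-0.23 ± 0.06, adjusted p = 0.0177, limma). *egg-1* was the third, lower by 0.16 (adjusted p = 0.0359, limma). The other 7 changed by -0.14 to 0.08 on the log2 scale. Both mutant comparisons use the same 3 wild type libraries.

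Set directly against *mut-16*, *prg-1* gonads differed in *egg-5* mRNA by 1.09 ± 0.06 on the log2 scale (adjusted p = 7.14e-07, limma), the 1 gene of 10 called, where 15.4% of all genes were called in either direction and 5.80% were called higher. Its levels thus stood highest in *prg-1*, then in wild type and then in *mut-16* gonads, and no neighbouring groups overlapped. Those of *rme-2* were lowest in *prg-1*, then in *mut-16* and highest in wild type gonads, again without overlap, and *prg-1* was lower than *mut-16* by 0.15 (adjusted p = 0.0231, limma), less than the fold threshold. *egg-2* was at 5389 ± 347 in *prg-1*, 6642 ± 84.8 in *mut-16* and 6749 ± 138 in wild type gonads. For *egg-2* the *mut-16* and wild type libraries overlapped and the *prg-1* libraries stood apart.

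**Figure D2:**
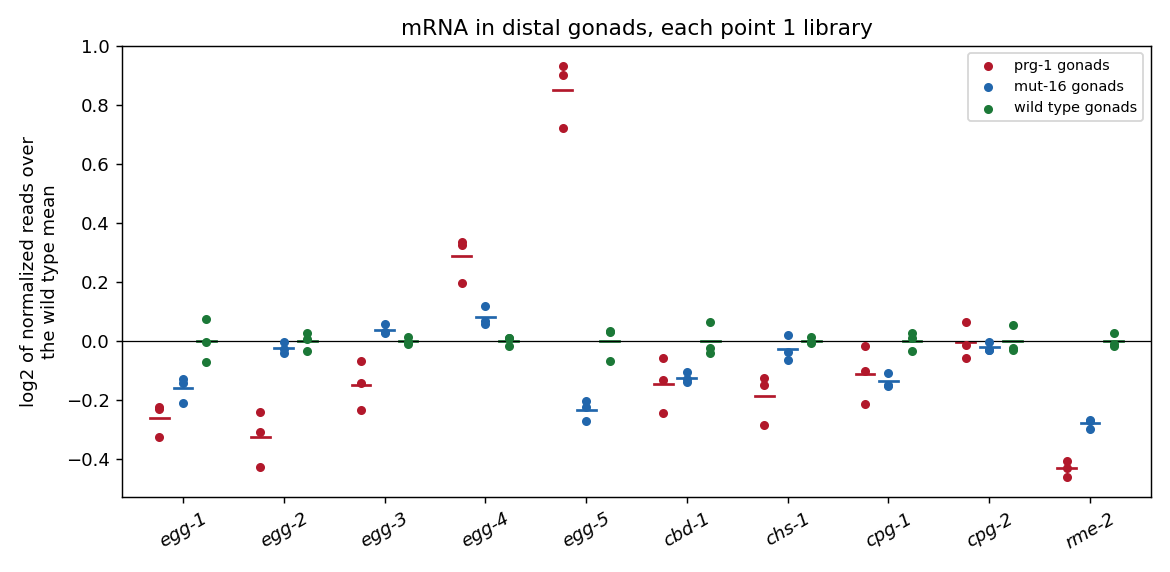
mRNA of each gene in distal gonads of *prg-1*, *mut-16* and wild type animals, as log2 of normalized reads over the wild type mean (each point 1 library, bars the mean of 3). The *prg-1* points of *egg-5* lie highest and those of *rme-2* below all wild type points of that gene, while the *cpg-2* points of the 3 genotypes overlap.

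The ratio of *egg-5* to *egg-4* within a library does not depend on the scaling. It may depend on how reads that match both genes were divided between them. In mRNA it was 2.26, 2.03 and 1.78 in *prg-1*, 1.13, 1.07 and 1.08 in *mut-16* and 1.38, 1.38 and 1.31 in wild type gonads. The 3 genotypes did not overlap. In an exact permutation test of 3 libraries against 3 (two-sided) each of these differences had p = 0.1, the smallest value the design allows. In 22G-RNAs the ratio was 0.911, 0.919 and 0.875 in *prg-1*, 1.05, 1.04 and 1.025 in *mut-16* and 1.04, 1.06 and 1.08 in wild type gonads, so that the *prg-1* libraries stood below both other groups (exact permutation p = 0.1). The *mut-16* and wild type ratios overlapped (exact permutation p = 0.2). For *egg-1* over *egg-2*, also close relatives, the mRNA ratio was 1.31, 1.37 and 1.39 in *prg-1* gonads, against 1.397, 1.27 and 1.23 in wild type gonads, and these overlapped (exact permutation p = 0.4). In all 20 such ratio comparisons were made, and no p can fall below 0.1.

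**Figure D3:**
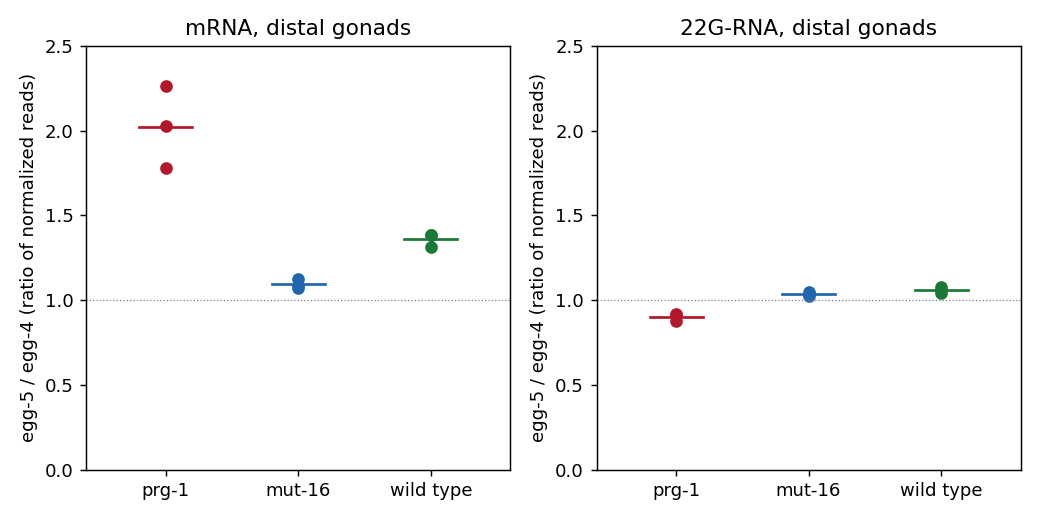
Ratio of *egg-5* to *egg-4* normalized reads in each distal gonad library (points; bars the mean of 3), for mRNA on the left and 22G-RNA on the right, with axes from 0. The *prg-1* libraries lie between 1.78 and 2.26 in mRNA, above the other genotypes, and between 0.875 and 0.919 in 22G-RNA, below them.

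In *prg-1* gonads the 22G-RNAs of *egg-4* and *egg-5* were reduced. Of 9 loci these 2 were called lower and none higher, where 47.3% of the 8031 features tested were called lower and 15.3% higher. Within the CSR-1 class 12.2% were called lower and 21.7% higher. *egg-5* had 2999, 2905 and 2685 normalized 22G-RNA reads in *prg-1* gonads, against 4870, 4616 and 4771 in wild type gonads (log2 change -0.73 ± 0.06 SE, adjusted p = 9.35e-07, limma). *egg-4* had 3292, 3161 and 3070 in *prg-1* gonads, against 4684, 4363 and 4440 in wild type gonads (-0.50 ± 0.05, adjusted p = 9.09e-06, limma). Neither locus had overlapping groups. As small RNA reads may be shared between them, the 2 calls may not be separate. The sum of the pair changed by -0.62 on the log2 scale (adjusted p = 1.9e-06, limma). With this pair and that of *egg-1* and *egg-2* summed, 1 of 7 loci was called. Without *prg-1* replicate 1, whose reads could not be worked back, the changes were -0.77 for *egg-5* and -0.53 for *egg-4*. The other 7 loci changed by -0.21 to -0.05 and none passed the test, while the CSR-1-class median was 0.11. As a share of CSR-1-class reads, the 9 loci took 0.430% to 0.476% in *prg-1* gonads, against 0.730% to 0.769% in wild type gonads. *egg-4* and *egg-5* made up 49.2% to 50.8% of the reads of the 9 loci in *prg-1* gonads, against 59.1% to 59.8% in wild type gonads.

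The size of these 22G-RNA changes depends on the scaling. With library totals made equal, 7 of 9 loci were called lower in *prg-1* gonads, with TMM over all features 4, and with TMM over miRNAs only all 9. *egg-4* and *egg-5* were lower under every scaling: *egg-4* lay between -1.74 and -0.50 and *egg-5* between -1.97 and -0.73 on the log2 scale. The median of all features moved by -0.35, -0.28 and -1.27 under those 3 scalings.

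In *mut-16* gonads the 22G-RNAs of *egg-1*, *cbd-1* and *cpg-2* were higher as the values were scaled by the authors, but not under TMM over miRNAs only. Of 9 loci these 3 were called higher and none lower, where 23.7% of all features and 35.9% of CSR-1-class loci were called higher and 33.6% of all features lower. *cpg-2* had 587.5, 670.8 and 655.4 normalized 22G-RNA reads in *mut-16* gonads, against 287.1, 294.1 and 354.5 in wild type gonads (log2 change 1.03 ± 0.12 SE, adjusted p = 1.45e-05, limma). *cbd-1* had 3169, 3358 and 3083 in *mut-16* gonads, against 1927, 1787 and 1842 in wild type gonads (0.79 ± 0.05, adjusted p = 2.62e-07, limma). *egg-1* had 1106, 1122 and 1034 in *mut-16* gonads, against 776.8, 764.8 and 791.7 in wild type gonads (0.48 ± 0.06, adjusted p = 4.72e-05, limma). The median change was 0.32 over the 9 loci and 0.29 over CSR-1-class loci. *egg-4*, *egg-5* and *rme-2* were also higher at adjusted p below 0.05, by less than 1.3-fold and with the sign turned under TMM over miRNAs only (for *rme-2* also under TMM over all features), so that 6 loci passed without the fold threshold, where 30.0% of all features did.

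Here too the scaling decides the count. With library totals made equal all 9 loci were called higher in *mut-16* gonads (the median of all features moved by 0.66), with TMM over all features 2, *cbd-1* and *cpg-2* (-0.29), and with TMM over miRNAs only none was called higher and *egg-2*, *chs-1* and *rme-2* were called lower (-1.01). As a share of CSR-1-class reads, the 9 loci took 0.804% to 0.830% in *mut-16* gonads, against 0.730% to 0.769% in wild type gonads, without overlap.

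**Figure D4:**
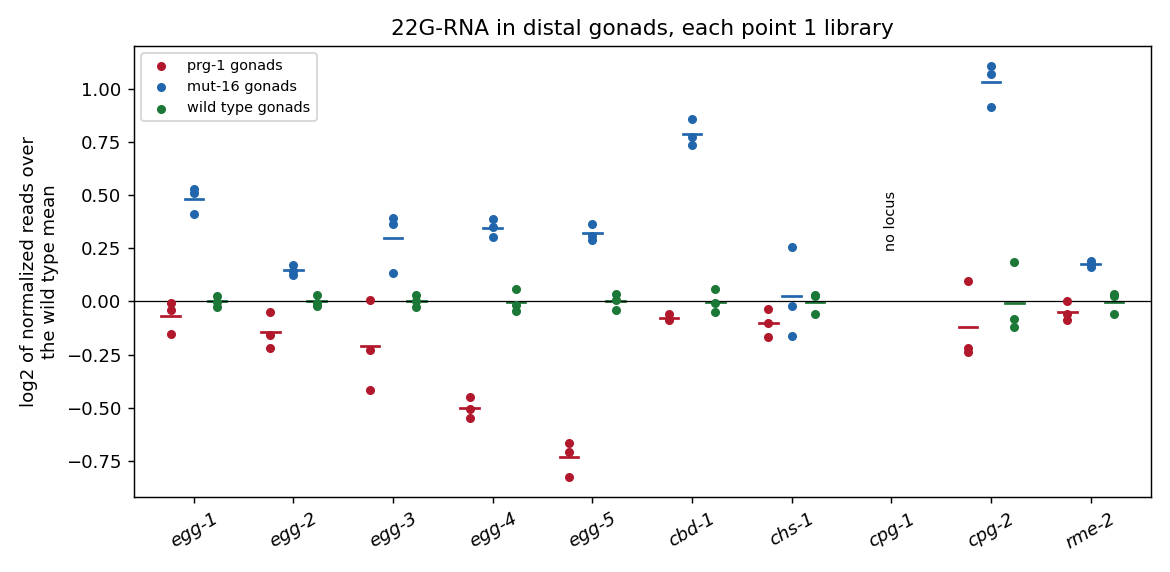
22G-RNAs of the 9 loci in distal gonads of *prg-1*, *mut-16* and wild type animals, as log2 of normalized reads over the wild type mean with the authors' scaling (each point 1 library, bars the mean of 3). The *prg-1* points of *egg-4* and *egg-5* lie lowest, and the *mut-16* points of *cbd-1* and *cpg-2* highest, an increase that TMM over miRNAs only does not give.

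Between the mutants, 6 of 9 loci were called with less 22G-RNA in *prg-1* and none with more, where 35.6% of all features and 22.4% of CSR-1-class loci were called lower and 23.9% of all features higher. These were *egg-1*, *egg-3*, *egg-4*, *egg-5*, *cbd-1* and *cpg-2*. *egg-5* differed by -1.05 ± 0.06 on the log2 scale (SE, adjusted p = 3.2e-08, limma) and *cbd-1* by -0.87 ± 0.05 (adjusted p = 1.23e-07, limma). At *chs-1* the groups overlapped, with 480.3, 459.4 and 438.9 in *prg-1* gonads, against 587.5, 485.1 and 439.9 in *mut-16* gonads. With TMM over all features 6 loci were again called. With TMM over miRNAs only 5 were, as *egg-3* no longer passed (-0.71, adjusted p = 0.0693, limma). All 9 were called lower in *prg-1* with library totals made equal, among them *egg-2* at -1.23, *rme-2* at -1.17 and *chs-1* at -1.07, and the median of all features moved by -0.95.

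Set side by side, the changes of mRNA and 22G-RNA in *prg-1* gonads had opposite signs at *egg-5* and *egg-4*. At *egg-5* mRNA was higher by 0.85 and 22G-RNA lower by 0.73 on the log2 scale, and at *egg-4* the values were 0.29 for mRNA and -0.50 for 22G-RNA. At *rme-2* the mRNA fell by 0.43 while its 22G-RNAs had 2103, 1975 and 2011 in *prg-1* gonads, against 2147, 2010 and 2137 in wild type gonads, a log2 change of -0.05 with a 95% interval of -0.16 to 0.07 in the authors' scaling. Under TMM over miRNAs only the 22G-RNAs of *rme-2* were called lower too (-1.285, adjusted p = 0.00114, limma). In *mut-16* gonads the locus with the largest 22G-RNA change in the authors' scaling, *cpg-2*, had 26132, 25612 and 25611 normalized mRNA reads, against 27193, 25750 and 25619 in wild type gonads, a log2 change of -0.02 with a 95% interval of -0.13 to 0.09. At *cbd-1*, where 22G-RNA was higher by 0.79 with the authors' scaling and at -0.24 under TMM over miRNAs only, the mRNA had 45842, 44731 and 45107 in *mut-16* gonads, against 48536, 47929 and 51524 in wild type gonads (-0.12, adjusted p = 0.129, limma). At *egg-5* in *mut-16* gonads 22G-RNA changed by 0.32, or by -0.71 under TMM over miRNAs only, and mRNA by -0.23.

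**Figure D5:**
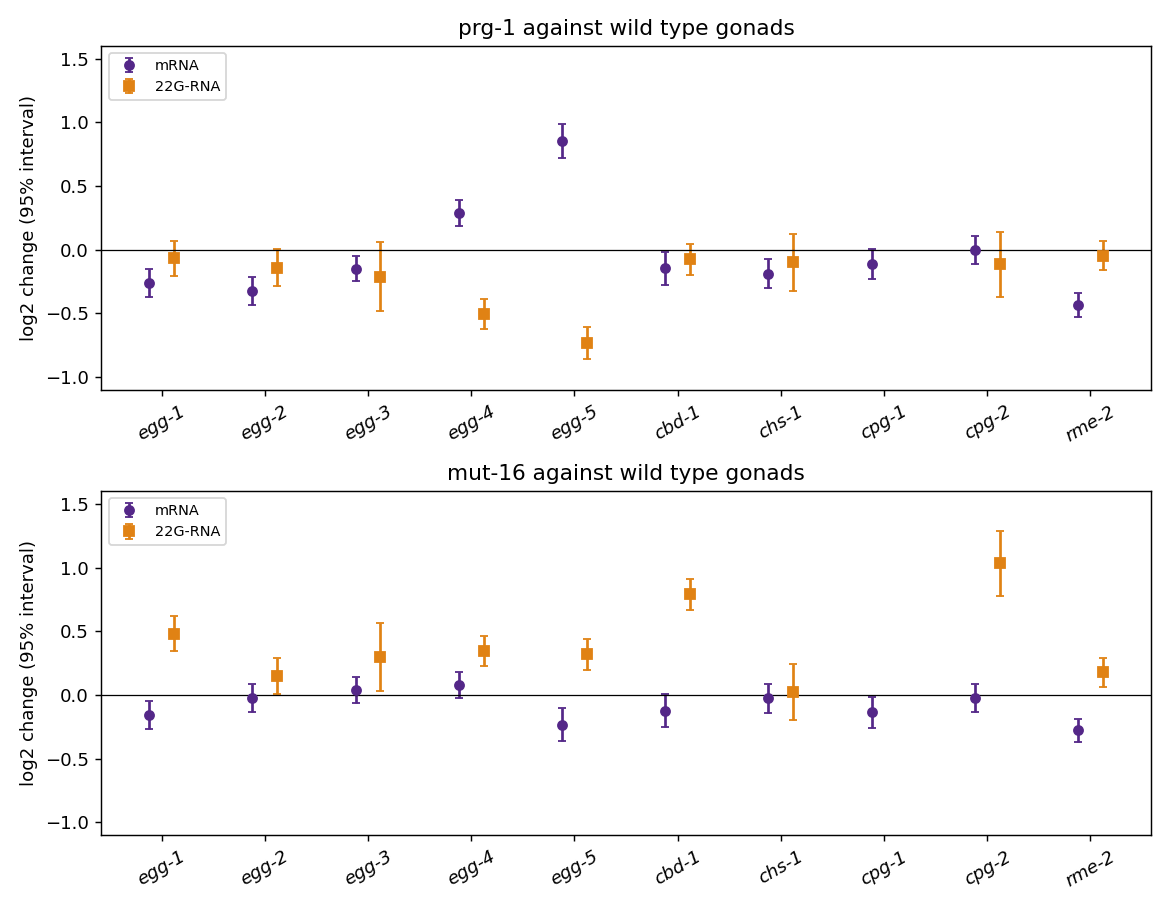
Log2 change of mRNA (circles) and 22G-RNA (squares, authors' scaling) of each gene in *prg-1* gonads (above) and *mut-16* gonads (below) against wild type gonads, with 95% intervals from limma. At *egg-5* in *prg-1* gonads mRNA lies at 0.85 and 22G-RNA at -0.73; at *cpg-2* in *mut-16* gonads 22G-RNA lies at 1.03, but near 0 under TMM over miRNAs only, and mRNA at -0.02.

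Of the neighbouring pathways in *prg-1* gonads, 2 of 13 mRNAs of chitin and chondroitin synthesis were called lower, the chondroitin linker enzyme genes *sqv-2* (369.0 ± 30.6 in *prg-1* gonads against 568.6 ± 52.8 in wild type gonads, mean ± SD, n = 3) and *sqv-6* (log2 change -0.39), and none higher. Of the 12 other eggshell genes 1 was called higher, the fatty acid synthase gene *fasn-1* (7346 ± 1522 in *prg-1* gonads, against 4504 ± 307 in wild type gonads). Of 16 oocyte-to-embryo genes *cav-1* was higher and *lin-41*, a regulator of oocyte growth, lower. Of 14 endocytosis genes 5 were lower, led by the dynamin gene *dyn-1* at 150.1 ± 22.4 in *prg-1* gonads, against 355.6 ± 17.9 in wild type gonads (log2 change -1.25, adjusted p = 4.54e-05, limma) and the adaptor subunit gene *dpy-23* (-0.93). Of all genes tested, 20.7% were called higher and 9.53% lower in *prg-1* gonads. In *mut-16* gonads 1 gene was called in each of the last 3 lists: *fasn-1* and *cav-1* higher, and *aps-2*, an adaptor subunit, lower. None of the 13 synthesis genes was called there, where 20.1% of all genes were called in either direction.

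The 22G-RNAs of these lists changed in both directions, with the authors' scaling. In *prg-1* gonads 2 of 11 loci of chitin and chondroitin synthesis were called lower, 2 of 9 other eggshell loci higher and 2 lower, 3 of 14 oocyte-to-embryo loci higher and 4 lower, and 1 of 12 endocytosis loci higher and 4 lower, where 15.3% of all features were called higher and 47.3% lower. In *mut-16* gonads 1 synthesis locus was higher and 1 lower, 2 other eggshell loci were higher and 2 lower, 7 oocyte-to-embryo loci were higher and 1 lower, and 6 endocytosis loci were higher and 3 lower, where 23.7% of all features were called higher and 33.6% lower.

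Sperm and muscle markers were higher in both mutants. Of the 9 muscle markers 8 were called higher in *prg-1* and 5 in *mut-16* gonads. Among the 10 germline markers 1 was called in *prg-1*, lower, and 0 in *mut-16*. Of 5 sheath and spermatheca markers tested, 1 was called higher in each mutant. Only 1 intestine marker was tested, and it was not called in either. The 15 sperm markers together had 3184, 5805 and 15880 normalized mRNA reads in *prg-1*, 2722, 4360 and 2017 in *mut-16* and 262.9, 772.2 and 231.0 in wild type gonads. All 15 were called higher in *prg-1* gonads, and 11 of them in *mut-16* gonads. The 9 muscle markers had 1252 to 2645 in *prg-1*, 1156 to 1497 in *mut-16* and 528.4 to 698.3 in wild type gonads. The 9 intestine markers had 51.4 to 66.4 in *prg-1*, 24.8 to 30.8 in *mut-16* and 8.64 to 29.2 in wild type gonads. The 10 germline markers had 52611 to 61304 in *prg-1*, 43140 to 47792 in *mut-16* and 50642 to 55607 in wild type gonads. The 7 sheath and spermatheca markers had 15616 to 19595 in *prg-1*, 16704 to 17990 in *mut-16* and 15520 to 16858 in wild type gonads. Of the 8 genes tested of the proteins that sperm carry for fertilization, the counterpart of EGG-1 and EGG-2, 7 were called higher in *prg-1* and 3 in *mut-16* gonads, and 1 of 2 tested was lower in wild type gonads than in whole animals. Among all genes 20.7% were called higher and 9.53% lower in *prg-1* gonads, and 20.1% in either direction in *mut-16* gonads. Between tissues 52.6% were called lower in wild type gonads. The part of these markers in the changes of the egg genes was not tested. Without *prg-1* replicate 3, which had the most sperm marker reads, *egg-5* mRNA was higher by 0.92 and *rme-2* lower by 0.42 on the log2 scale, and both stayed called. The remaining *prg-1* libraries, with 3184 and 5805 sperm marker reads, still stood above every wild type library, so this is no test of those markers.

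Across the 9 gonad mRNA libraries the genes did not vary as 1 block. *egg-2*, *egg-3* and *chs-1* varied together (Pearson r of log2 values 0.892 to 0.938). So did *cbd-1* and *cpg-1* (0.923), and *egg-1* and *rme-2* (0.898). *egg-4* and *egg-5*, between which reads may have been shared, varied together (0.816). Both varied opposite to *egg-2* (-0.945 for *egg-4* and -0.880 for *egg-5*). These correlations are descriptions over 9 libraries in 3 genotype groups, which share the differences between groups. Among 9933 other mRNAs, the one whose pattern was most like each gene was *pkhm-2* for *egg-1* (0.972), D1054.1 for *egg-2* (0.990), *dhs-27* for *egg-3* (0.983), *glna-3* for *egg-4* (0.973) and the B-type cyclin gene *cyb-2.2* for *egg-5* (0.985). It was *pola-1*, a DNA polymerase alpha subunit, for *cbd-1* (0.980), *tdc-1* for *chs-1* (0.984), the coat protein gene *sec-24.1* for *cpg-1* (0.996), *sdhd-1*, a succinate dehydrogenase subunit, for *cpg-2* (0.944) and the protein disulfide isomerase gene *pdi-6* for *rme-2* (0.988).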

How the data were processed

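For mRNA the authors used Trimmomatic 0.35 for trimming, STAR 2.5.0a for alignment to genome release WS230 and RSEM 1.3.0 for counting. They mapped small RNA reads with CASHX 2.3, perfect matches only, classed features with scripts of their own and SAMtools 1.6, and named DESeq2 1.18.1 for testing. The deposited values are normalized signal, and how they were scaled is not stated in the sources used here. Wild type gonad libraries stand in 2 tables of each assay, scaled apart, and no value was compared across tables.

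A gene was tested where its value reached 10 in at least 3 libraries. Log2 of the value plus 1 was fitted with limma 3.58.1 (trend, robust), in 1 fit per table over all its libraries. Small RNA values were whole multiples of 1 read within 0.01 (100% of values), except in *prg-1* replicate 1, so the recovered reads, without that library, were also tested with edgeR 4.0.16 and with DESeq2 1.42.0. R 4.3.3 was used, and the fit was tested on simulated data. Depth limits the whole animal 22G-RNA values most.

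Genes named are the 10, the 2 mutated genes, the mRNA most like each, and, of 11 neighbouring or marker lists, genes among the 2 with the largest called change in a comparison. *cpg-3* and *mbk-2* were added after their values were seen. The genes and lists were chosen with earlier results of these data known. Symbols come from RefSeq (87.8% of mRNA identifiers matched). Replicate numbers are shared by all groups. Deviations of equal number correlated by 0.124, 0.547 and 0.358 between *mut-16* and wild type gonad mRNA, and not in every pair elsewhere. The main fits took no account of replicate number, and fits with it as a block are given below. Transposon tables were not used here.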

Additional observations from a re-analysis of the deposited data

How the results depend on the processing

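Of all values given for single genes under alternatives, 1369 kept their direction and their side of the threshold. With the direction kept, 47 passed it and 3 no longer passed it. Another 25 changed sign, and some of these also crossed the threshold. Without the fold threshold 7 genes were called for mRNA in *prg-1*, 3 in *mut-16* and 6 between the mutants, and 6 loci for 22G-RNA in *mut-16*. For 22G-RNA in *prg-1* 4 loci were called with TMM over all features, 7 with library totals made equal, 9 with TMM over miRNAs only, and 1 (the *egg-4* and *egg-5* sum) with pairs summed. In *mut-16* 9 were called with totals made equal. With TMM over miRNAs only, *mut-16* 22G-RNA changes turned to -0.55 (*egg-1*), -0.88 (*egg-2*), -0.73 (*egg-3*), -0.68 (*egg-4*), -0.71 (*egg-5*), -0.24 (*cbd-1*), -1.005 (*chs-1*) and -0.85 (*rme-2*), and with TMM over all features to -0.15 (*egg-2*), -0.27 (*chs-1*) and -0.12 (*rme-2*). Between the mutants, mRNA turned to -0.014 (*cpg-1*) and -0.021 (*cpg-2*) with TMM, and to -0.023 (*cpg-1*) and -0.030 (*cpg-2*) with totals made equal, which gave 0.00029 for *cpg-2* in *mut-16*. The cause was not tested.

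Leaving out 1 library at a time kept 10 mRNAs called between tissues, 2 in *prg-1*, 0 in *mut-16* and 1 between the mutants, and for 22G-RNA 8 to 9 between tissues, 2 in *prg-1*, 3 in *mut-16* and 6 between the mutants. The ninth was *chs-1* without whole animal replicate 2 (0.42), which was also called between tissues with TMM over all features (0.47), totals made equal (0.64) and TMM over miRNAs only (5.08). Between the mutants 9 loci were called for 22G-RNA with totals made equal and 5 with TMM over miRNAs only. Uncalled changes crossed 0: for mRNA, *cpg-2* in *prg-1* (-0.036 to 0.025) and *mut-16* (-0.037 to 0.0056), and between the mutants *cbd-1* (-0.063 to 0.030), *cpg-1* (-0.021 to 0.078) and *cpg-2* (-0.014 to 0.047), and for 22G-RNA *chs-1* in *mut-16* (-0.091 to 0.12). Without 1 whole animal library the median mRNA change of all genes was 0.20 to 0.24 between tissues, since fewer genes reached the minimum in 3 libraries. With the replicate number as a block, the same counts of 10, 2, 0 and 1 mRNAs and of 8, 2, 3 and 6 22G-RNA loci were called, and no call changed. edgeR and DESeq2 on recovered reads gave the same counts as limma. Low read numbers limit the whole animal 22G-RNA values.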
